A study of Mus musculus with 16 samples.

Results

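The Dlx genes *Dlx1* to *Dlx6* and the Msx genes *Msx1* to *Msx3* were followed in nuclear RNA from mouse embryonic stem cells (ESCs), in a series in which both Polycomb repressive complexes, PRC1 and PRC2, were removed singly and together. The 9 genes were chosen by their symbols, and each is represented by 1 RefSeq entry that was present in all 3 deposited tables, out of 19338 genes with 1 entry each. By count, all 9 were measured at low levels. The mean normalized counts of the 9, the authors' means over libraries, ranged from 10.8 for *Dlx2* to 115 for *Msx2*, against 192 for the median gene. Per kilobase of whole gene, however, *Msx2*, *Dlx3* and *Msx1* lay above the median gene.

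Dlx and Msx genes encode homeodomain transcription factors, proteins that bind DNA through a conserved helical domain and recognize short sites with a TAAT core. Dlx genes, the relatives of fly Distal-less, lie as convergently transcribed pairs and are known for patterning of the pharyngeal arches and limbs and for the formation of forebrain interneurons. Msx genes, the relatives of fly muscle segment homeobox, act downstream of Bmp signals in neural crest, tooth, palate, skull and limb. Both families are classical Polycomb targets in ESCs, where their promoters carry the histone marks laid down by PRC1, an H2A ubiquitin ligase, and PRC2, an H3 methyltransferase.

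The series holds 16 libraries in 4 groups of 4. Wild-type cells were Ring1a-/-;Ring1bfl/fl ESCs left untreated. PRC1-null cells were the same line after 800 nM 4-hydroxytamoxifen for 72 h, which deletes *Rnf2*, the gene for RING1B. PRC2-null cells were untreated Eed-/-;Ring1a-/-;Ring1bfl/fl ESCs, in which *Eed* had been removed with CRISPR/Cas9, and PRC1/2-null cells were the same Eed-/- line with the same tamoxifen treatment. All 4 groups, the controls included, lack RING1A, and both Eed-/- groups come from 1 clone, B4. Cells were grown without feeders on gelatin in serum with leukemia-inhibitory factor, and the study's methods name the 4 libraries of a group biological replicates.

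The values that could be used are pooled. Each table gives 1 mean normalized count per entry, identical in the 3 tables, beside 6 columns of the authors' own comparisons, which were not used. The mean therefore says how much RNA of a gene was measured over the series as a whole, and not in which of the 4 groups. It carries no error and no number of replicates, and depth per library is unknown. If the mean runs over all 16 libraries, no group of 4 can have had a mean above 4 times the pooled value, and that bound is given for each gene. The targeted genes were measured at means of 2723 for *Eed* and 3208 for *Rnf2*, and *Ring1*, the gene for RING1A, at 19.0, but a pooled mean checks no label.

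The promoter sequences of 4 members are shown. One reason is that the CpG content of a promoter is a feature by which Polycomb complexes are known to find their targets in mammals. The other is that these windows belong to the highest member (*Msx2*), its family and the member lowest by mean count (*Dlx2*). Each is a RefSeq window on GRCm38.p6, the assembly of mm10, from 250 bases before to 50 bases after the annotated start, written on the minus strand that is transcribed, with every CpG in capitals. The windows lie at chr13:53472731-53473030 for *Msx2*, chr5:37824536-37824835 for *Msx1*, chr7:140049039-140049338 for *Msx3* and chr2:71546705-71547004 for *Dlx2*.
Msx2: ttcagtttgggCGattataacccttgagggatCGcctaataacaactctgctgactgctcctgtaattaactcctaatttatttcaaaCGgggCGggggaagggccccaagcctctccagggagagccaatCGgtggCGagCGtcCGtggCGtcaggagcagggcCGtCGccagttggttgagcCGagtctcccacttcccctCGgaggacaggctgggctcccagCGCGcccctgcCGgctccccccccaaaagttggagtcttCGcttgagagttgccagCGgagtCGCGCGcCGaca
Msx1: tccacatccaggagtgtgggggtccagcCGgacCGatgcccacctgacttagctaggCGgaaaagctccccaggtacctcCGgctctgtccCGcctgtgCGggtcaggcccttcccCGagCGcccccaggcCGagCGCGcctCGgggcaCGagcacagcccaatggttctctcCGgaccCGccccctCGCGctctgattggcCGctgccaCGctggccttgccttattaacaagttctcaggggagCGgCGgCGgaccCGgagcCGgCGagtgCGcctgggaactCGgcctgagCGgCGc
Msx3: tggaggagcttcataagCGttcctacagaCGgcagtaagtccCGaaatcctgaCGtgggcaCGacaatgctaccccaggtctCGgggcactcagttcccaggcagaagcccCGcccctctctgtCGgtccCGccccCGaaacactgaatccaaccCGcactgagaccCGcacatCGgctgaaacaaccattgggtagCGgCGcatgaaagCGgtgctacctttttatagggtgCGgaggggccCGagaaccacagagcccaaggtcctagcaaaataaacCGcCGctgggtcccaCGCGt
Dlx2: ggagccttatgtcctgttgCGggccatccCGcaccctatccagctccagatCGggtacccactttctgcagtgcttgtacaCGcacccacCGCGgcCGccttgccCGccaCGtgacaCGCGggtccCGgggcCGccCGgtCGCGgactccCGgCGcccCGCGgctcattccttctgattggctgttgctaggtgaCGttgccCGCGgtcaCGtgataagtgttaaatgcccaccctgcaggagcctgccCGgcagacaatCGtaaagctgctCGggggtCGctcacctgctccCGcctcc

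CpG dinucleotides were dense in all of them. The *Msx2* and *Msx3* windows hold 22 CpGs each, and those of *Msx1* and *Dlx2* hold 29 each, against 7 in the median of all 32851 windows. The reference table also holds a window for *Dlx1*, at chr2:71529195-71529494 on the plus strand, with 27 CpGs. Its start site is 1332 bases inside the gene as annotated, so it stands for an internal start. Windows for *Dlx3*, *Dlx4*, *Dlx5* and *Dlx6* were not analysed here.

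*Msx2*, which acts in skull, tooth and hair follicle development, was the highest member, with a mean normalized count of 115. It lies at chr13:53466881-53472780 on the minus strand (NM_013601), and 43.9% of genes had a lower mean. *Msx1*, required for tooth and palate, lies at chr5:37820491-37824585 on the minus strand (NM_010835) and had a mean of 44.6, above 35.3% of genes. *Msx3*, a gene of the dorsal neural tube, lies at chr7:140046157-140049088 on the minus strand (NM_010836) and had a mean of 11.7, above 26.1% of genes. The 3 Msx genes thus spread over the range of all 9 members. The bounds on the mean of any group were 462 for *Msx2*, 178 for *Msx1* and 47.0 for *Msx3*, so that under this assumption *Msx3* and *Msx1* lay below the median gene's pooled mean of 192 in every group, while *Msx2* need not have done so.

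*Dlx3*, which acts in placenta, epidermis, hair and tooth, was the highest Dlx gene, with a mean normalized count of 98.3. It lies at chr11:95120117-95125296 on the plus strand (NM_010055) and was above 42.1% of genes. Its partner *Dlx4* lies at chr11:95140447-95146294 on the minus strand (NM_007867) and had a mean of 15.6. The 2 genes are separated by 15.15 kb. Their means summed to 114 and differed 6.30-fold, the widest ratio among the 3 Dlx pairs.

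The other 2 pairs were low in both members. *Dlx1*, at chr2:71528113-71533981 on the plus strand (NM_010053), had a mean normalized count of 16.5, and *Dlx2*, at chr2:71543408-71546754 on the minus strand (NM_010054), had 10.8. Both are needed for the migration of forebrain interneurons and for upper jaw elements. *Dlx6*, at chr6:6863334-6867970 on the plus strand (NM_010057), had a mean of 17.1, and *Dlx5*, at chr6:6877801-6882068 on the minus strand (NM_010056), had 11.1. These partners specify the lower jaw. The gaps between partners were 9.426 kb for *Dlx1* and *Dlx2* and 9.83 kb for *Dlx6* and *Dlx5*. The plus-strand gene of each pair had the higher mean count, 1.53-fold for *Dlx1* over *Dlx2*, 1.54-fold for *Dlx6* over *Dlx5* and 6.30-fold for *Dlx3* over *Dlx4*. Per kilobase of spliced transcript the first of these ratios fell below 1, to 0.920, whereas the others were 2.04 and 5.52. By whole-gene length they were 0.873, 1.41 and 7.11, so the order within the *Dlx1* and *Dlx2* pair depends on the division by length. Under the same assumption the mean of a group could not have exceeded 66.0 for *Dlx1*, 43.1 for *Dlx2*, 62.4 for *Dlx4*, 44.5 for *Dlx5* or 68.3 for *Dlx6*, and the bound for *Dlx3* was 393.

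**Figure D1:**
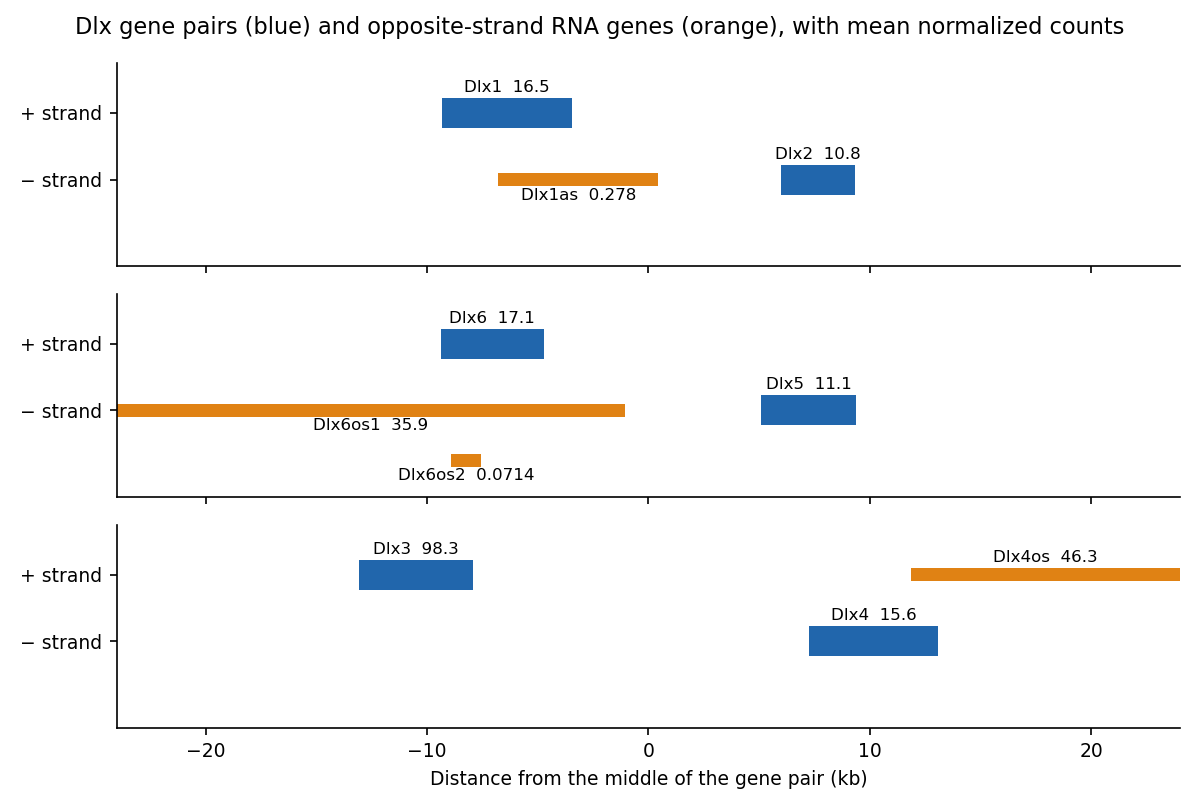
The 3 Dlx pairs drawn to scale, with distance from the middle of each pair in kb on the horizontal axis and the strand on the vertical axis. Dlx genes are blue and opposite-strand noncoding genes orange (*Dlx6os1* and *Dlx4os* run past the edge), each with its mean normalized count: *Dlx3* at 98.3 stands above the other 5 Dlx genes, which lie between 10.8 and 17.1.

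Members were ranked per kilobase of spliced transcript, since a count grows with the length of a gene. Mean counts of single genes in the lists are not divided by length, and the medians of the lists are given on both scales. The order of this level was *Msx2* (47.0), *Dlx3* (37.7), *Msx1* (23.1), *Dlx6* (15.9), *Dlx5* (7.81), *Dlx4* (6.84), *Msx3* (5.67), *Dlx2* (4.36) and *Dlx1* (4.01). The median gene stood at 76.7 on the same scale, above all 9, and from 23.2% of genes (*Dlx1*) to 44.0% (*Msx2*) had a lower level per kilobase. The widest step between neighbours in the order was 2.04-fold, from *Dlx6* to *Dlx5*, and the narrowest were 1.09-fold from *Dlx2* to *Dlx1* and 1.14-fold from *Dlx5* to *Dlx4*. Without values per library, no step could be set against a spread between replicates, so the order of neighbours is a description.

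Nuclear RNA holds unspliced transcripts, for which the length of the whole gene is the other natural divisor. Per kilobase of gene from start to end, *Msx2* had a level of 19.6, *Dlx3* of 19.0 and *Msx1* of 10.9, and these were again the first 3. On that scale they lay above the median gene, at 8.74, whereas *Msx3* (4.01), *Dlx6* (3.68), *Dlx2* (3.22), *Dlx1* (2.81), *Dlx4* (2.67) and *Dlx5* (2.61) lay below it. The members are short genes of 2932 to 5900 bases with 2 to 4 exons, and the statement that they lie below the median gene therefore holds for all 9 by count and by transcript length, and for 6 of 9 by gene length.

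**Figure D2:**
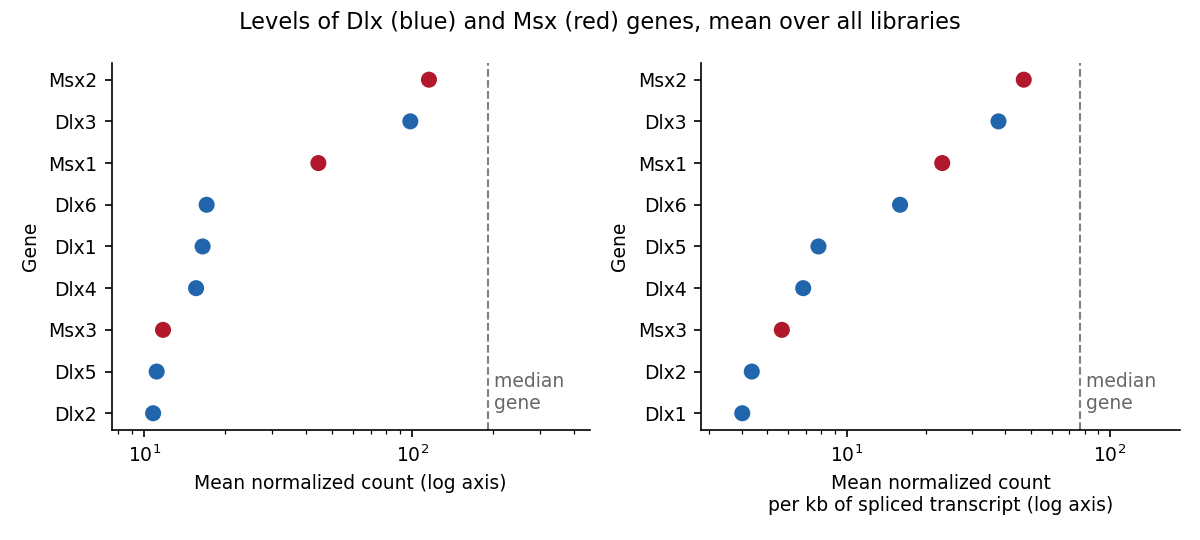
Mean normalized count (left) and the same per kb of spliced transcript (right) of the 9 genes on log axes, 1 point per gene, Dlx in blue and Msx in red, with no error bars because the authors' mean has none. The dashed line is the median gene (192 and 76.7), and all points lie to its left, with *Msx2*, *Dlx3* and *Msx1* nearest to it.

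Of the 9 members, 6 had means between 10 and 20, a band that holds 852 of all genes, or 4.41%. Only *Msx2* reached a mean of 100, as did 57.6% of all genes, and all 9 reached 10, as did 74.9% of all genes. The 9 means summed to 341, of a sum of 18542200 over all entries. ESC markers, by contrast, ranged from 389 for *Klf2* to 14464 for *Tfcp2l1*. Among them were *Pou5f1* (1384), *Sox2* (1849) and *Nanog* (1577), core pluripotency factors that define the cell type on the labels. *Dppa5a* had no entry that could be matched.

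**Figure D3:**
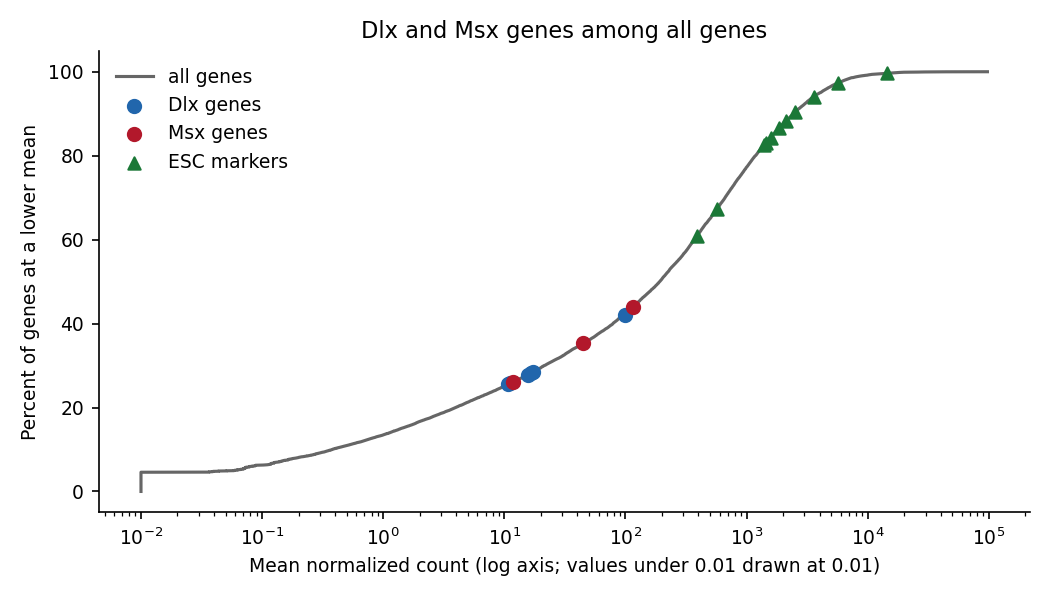
Percent of genes at a lower mean (vertical axis) against mean normalized count (horizontal, log axis) for all 19338 genes (grey line), with Dlx genes in blue, Msx genes in red and ESC markers as green triangles. The 9 members sit between 25.6% and 43.9%, below all 11 ESC markers found.

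Several members overlap a noncoding gene on the opposite strand. Whether the authors counted by strand is not stated in the sources used here, so reads of overlapping genes may not have been kept apart. *Dlx6os1* (NR_015388), also known as Evf2 and transcribed from the strand opposite *Dlx6*, spans 51085 bases and covers all of *Dlx6*. Its mean count was 35.9 and that of *Dlx6* 17.1, but per kilobase of transcript *Dlx6os1* was the lower of the 2 genes, at 7.80 against 15.9. *Dlx4os* (NR_040279) overlaps 1242 bases, or 21.2%, of *Dlx4*, and it was the higher by count, at 46.3 against 15.6, and per kilobase of transcript, at 27.8 against 6.84. The values of *Dlx6* and *Dlx4* are uncertain for that reason, as are those of *Dlx1* and *Msx1*, which overlap noncoding genes given next. The other 3 noncoding genes had mean counts near 0. *Dlx1as* (NR_002854) had a mean of 0.278, *Dlx6os2* (NR_002839), inside *Dlx6*, had 0.0714, and *Msx1os* (NR_027920), inside *Msx1*, had 0.175. By RefSeq coordinates *Dlx1as* overlaps 57.0% of *Dlx1*, and by GENCODE coordinates 5869 bases, the full length of *Dlx1*. *Msx1os* covers 53.4% of *Msx1*. Whether reads were lost from these members or from their noncoding genes was not tested. Of the 80-base stretches in the *Dlx1* transcript, 259 of 4032 (6.42%) were found also in *Dlx1as*. No other member shared an 80-base stretch, the read length, with a GENCODE M21 transcript of another gene, other members included. No GENCODE gene overlaps *Msx1*, so *Msx1os* was not among the sequences searched. With 40-base stretches, 299 of *Dlx1*, 53 of *Dlx6*, 40 of *Dlx4* and 38 of *Msx2* were shared with another gene. Of those of *Msx2*, 8 were shared with another member.

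Members were also set beside the nearest coding neighbours that had an entry. Of these 12 neighbours, 7 reached a mean of 100, as did 57.6% of all genes. *Metap1d*, a mitochondrial methionine aminopeptidase gene, lies 2.918 kb from *Dlx1* and had a mean normalized count of 1235, or 935 per kilobase of transcript, where *Dlx1* had 4.01 per kilobase. *Itga6*, an integrin subunit gene on the other side of that pair, had 2017 per kilobase. *Itga3*, another integrin subunit gene, lies 43.272 kb from *Dlx3* and had 396 per kilobase. On the same scale *Sem1* (744), a proteasome subunit gene beside the *Dlx5* and *Dlx6* pair, *Stx18* (1058), a syntaxin gene beside *Msx1*, *Sptlc1* (455), a sphingolipid synthesis gene beside *Msx2*, and *Zfp511* (128), a zinc finger gene beside *Msx3*, were likewise above the members next to them. The remaining 5 neighbours were lower per kilobase than the members nearest to them. Distances ranged from 2.918 kb for *Metap1d* to 673 kb for *Tac1*, so not all neighbours lie close. They are the tachykinin genes *Tac1* (5.87) and *Tac4* (0.827), the dopamine receptor gene *Drd1* (1.34), the neuronal gene *Caly* (4.82) and *Cytl1*, listed at 0. Of the 12 neighbours, 7 thus exceeded the highest member, *Msx2*, at 47.0 per kilobase, and the same 7 exceeded its mean count of 115. Among all genes, 44.0% were lower than *Msx2* per kilobase and 43.9% by count.

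Genes of the same wider homeobox class had a lower median. Of 26 listed NK-like relatives 24 were found, with a median mean of 8.83 against 16.5 for the 9 members, and a median of 5.09 against 7.81 per kilobase of transcript. *Barx1*, a gene of the stomach and molar field, was highest at 138 and *Noto*, a notochord gene, lowest at 0.584. Of them 10 reached a mean of 10 and 2 reached 100, whereas among the members 9 of 9 and 1 of 9 did so. No test was made between these lists, whose members were chosen by name.

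Genes that work with Dlx factors in forebrain interneurons lay in a range around theirs. The 18 genes of this list had a median mean of 20.4 and a median of 8.56 per kilobase of transcript, and by count 15 reached 10 and 3 reached 100. *Reln*, a secreted guidance protein gene, was highest at 392. *Gad1* and *Gad2*, which make the transmitter GABA and are induced by Dlx factors, had means of 100.1 and 19.9, and the forebrain regulator *Lhx6*, which acts in the same interneurons, had 92.4.

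Neural crest and pharyngeal arch genes, the setting in which both families act, had a median mean of 68.5 over 25 genes, with 24 at 10 or more and 8 at 100 or more. Per kilobase of transcript the median was 19.7. *Nkx3-2* was lowest at 2.55. *Hand2*, a lower jaw gene that depends on *Dlx5* and *Dlx6*, had a mean of 13.7, and *Edn1*, the ligand gene upstream of them, 86.9. The 5 markers of neural crest cells themselves had a median mean of 78.1, against 1849 for ESC markers, and per kilobase of transcript the medians were 33.6 and 899. *Ets1* was highest at 455 and *Snai2* lowest at 17.5.

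Bone and tooth genes, among which are targets of Dlx and Msx factors, spread widely, from near 0 to levels in the range of ESC markers. Of 16 listed 15 were found, with a median mean of 172, or 44.2 per kilobase of transcript. *Spp1* (3151) and *Alpl* (3121), a matrix protein gene and the phosphatase gene that ESCs are stained for, were high. *Runx2*, the master regulator gene of osteoblasts, had a mean of 286. Matrix genes differed among themselves. The cartilage collagen gene *Col2a1* had 284 and the bone collagen gene *Col1a1* 51.5, whereas *Ibsp* and *Dmp1* of bone, *Amelx* and *Ambn* of enamel and *Col10a1* of hypertrophic cartilage had from 0.0393 (*Col10a1*, the lowest) to 0.110 (*Dmp1*). *Sp7*, the osteoblast factor gene downstream of *Runx2*, had 3.51.

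Genes of the Bmp pathway, which turns on Msx genes in many tissues, spread widely. The 23 genes had a median mean of 386, or 182 per kilobase of transcript. Of them 16 (69.6%) were at 100 or more, against 57.6% of all genes. At 1000 or more were 7 (30.4%), against 22.7% of all genes. Receptor genes were among the highest, with *Bmpr2* at 6876, *Bmpr1a* at 4599 and *Acvr1* at 1599. Of the transducers, *Smad4* had a mean of 3047, *Smad5* 1198 and *Smad1* 805, and the inhibitory *Smad7* had 2929. Among ligand genes *Bmp6* had 1286, *Bmp4* 345, *Bmp2* 123 and *Gdf6* 31.0, and *Bmp5* was lowest on the list at 1.49. The antagonist genes *Chrd* (72.0), *Nog* (66.2) and *Grem1* (7.47) were low, as was the transducer gene *Smad9* (39.7). The Bmp target genes of the Id family differed among themselves, with mean counts of 791 for *Id2*, 224 for *Id1*, 186 for *Id3* and 53.6 for *Id4*. Per kilobase of transcript the first 3 had 623, 240 and 145, above the 47.0 of *Msx2* and the 23.1 of *Msx1*, which are Bmp target genes as well, whereas *Id4* had 13.9, below both.

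Markers of fibroblasts, which serve as feeder cells, were measured beside these lists because fibroblasts express *Msx1* and *Msx2*. Of 11 markers 7 reached a mean of 10 and 5 reached 100, from *Lum* at 0.283 to *Fbn1* at 952. The extracellular matrix genes *Dcn* (1.11), *Postn* (1.36), *Col3a1* (1.01) and *Lum* were near 0, but the collagen genes *Col1a1* (51.5) and *Col1a2* (70.3) were not. The surface protein genes *Thy1* (128), *Pdgfrb* (162) and *Cd44* (888) and the intermediate filament gene *Vim* (306) were higher than those. The median of the list was 70.3 by count and 13.2 per kilobase of transcript. As all libraries are pooled in 1 mean, the part of any other cell type in the members' levels was not tested, and fewer expressing cells cannot be told apart from less RNA per cell.

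**Figure D4:**
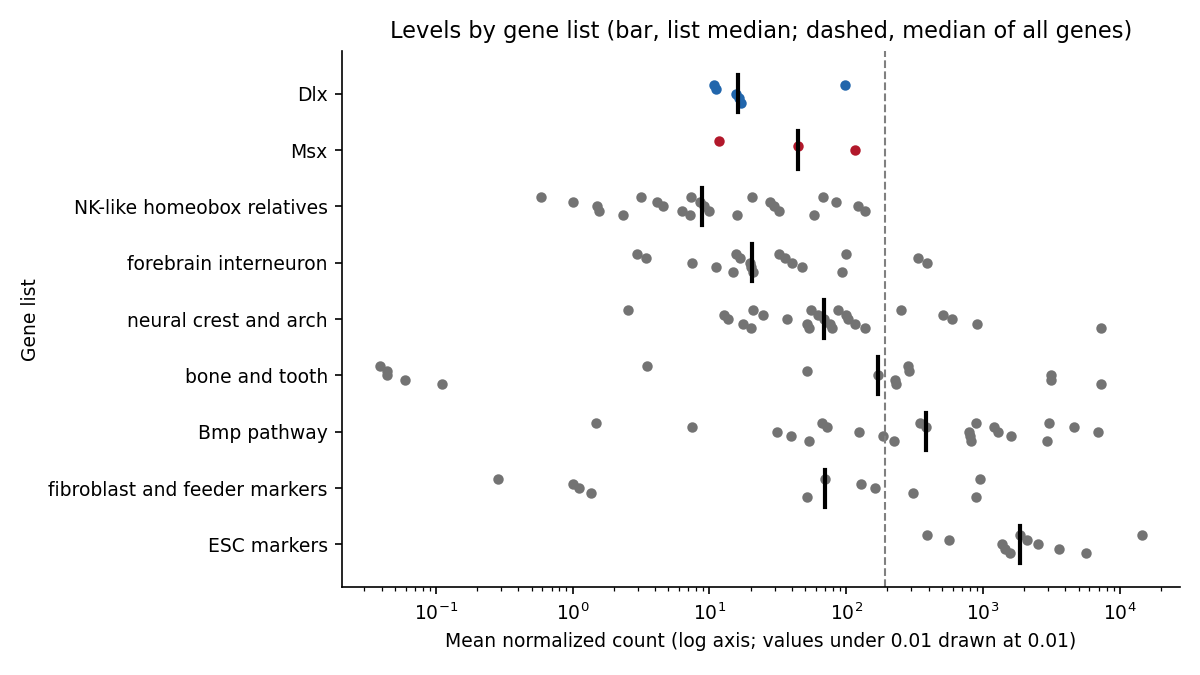
Mean normalized count on a log axis for each gene of the named lists, 1 point per gene, with a bar at each list's median and a dashed line at the median of all genes (192). Dlx (blue) and Msx (red) genes lie within the range of each other list except the ESC markers, all of which are higher.

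The promoter windows found, for 5 of the 9 members and with that of *Dlx1* at an internal start, are CpG-rich. GC content of the 5 windows found was 69.3% for *Dlx1*, 66.3% for *Dlx2*, 70.0% for *Msx1*, 61.0% for *Msx2* and 60.0% for *Msx3*, against a median of 52.7% for all windows. The ratio of observed to expected CpG, which compares the CpG number with that given by the C and G content, was 0.767, 0.898, 0.794, 0.789 and 0.823 in the same order, against a median of 0.384. With a ratio of at least 0.6 and a GC content of at least 50% taken as CpG-rich, all 5 windows passed, as did 33.5% of all windows.

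The 5 members with a window had low levels among genes with CpG-rich promoters. The 8386 genes with such a promoter had a median mean normalized count of 602, against 9.49 for the 6885 genes with other promoters, and 6.09% of the CpG-rich set had a mean under 20. *Dlx1*, *Dlx2* and *Msx3* are in that share. Per kilobase of transcript the medians were 215 and 5.21. By count these members lay above 5.37% (*Dlx1*), 3.89% (*Dlx2*), 10.2% (*Msx1*), 18.0% (*Msx2*) and 4.11% (*Msx3*) of genes with CpG-rich promoters, and per kilobase above 2.83%, 3.08%, 11.2%, 18.3% and 3.85% in the same order. *Msx2*, at a mean of 115, was not among the 16.5% of CpG-rich genes with a mean under 100.

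**Figure D5:**
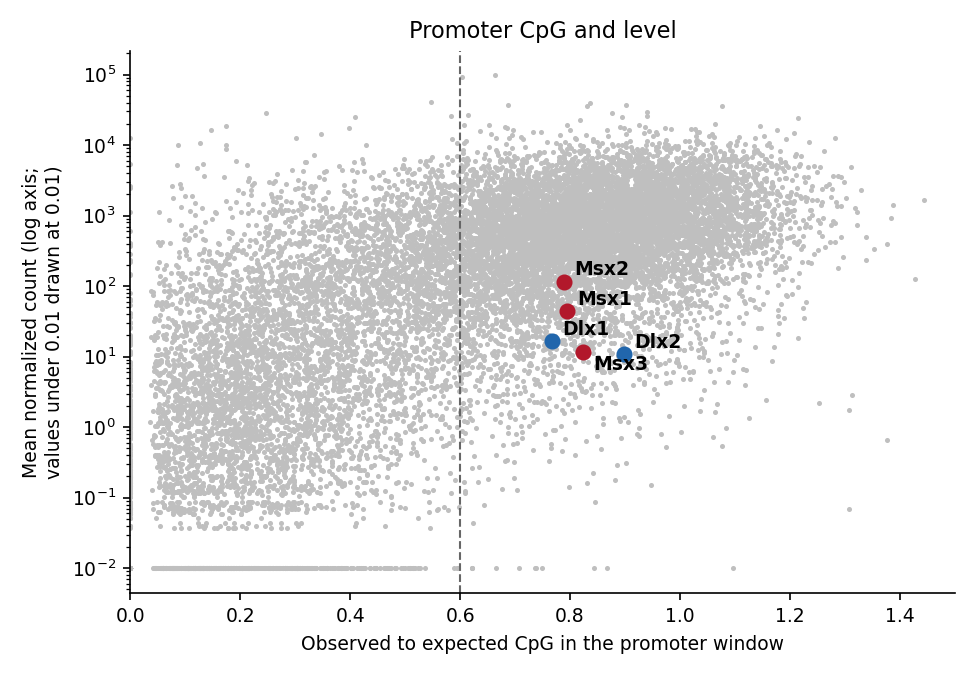
Mean normalized count (vertical, log axis) against the ratio of observed to expected CpG in the promoter window (horizontal) for all genes with a window (grey), with *Dlx1* and *Dlx2* in blue and *Msx1*, *Msx2* and *Msx3* in red. The dashed line marks a ratio of 0.6, and the 5 members, at ratios from 0.767 to 0.898, lie in the lower part of the cloud to its right.

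Short motifs were searched on both strands of the windows. TAATTA, a core to which Dlx and other homeodomain proteins bind, occurs once in the *Msx2* window and in no other member's, and 5.29% of all windows hold it. TAATTG, the form that Msx proteins bind, was found in none of the 5, and 8.0% of all windows hold it. The GC box GGGCGG is in all 5 windows (35.7% of all windows) and the CCAAT box in all but that of *Dlx1* (37.4%). TATAAA was found for *Msx3* (13.6%). GGGCGG contains a CpG, so its presence follows in part from CpG content, and these matches describe the letters of the windows and not binding.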

How the data were processed

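Nuclear RNA depleted of ribosomal RNA was sequenced by the authors with 80-base paired-end reads from a directional kit in 16 libraries. Per the methods and the submitters' processing notes, the authors removed ribosomal reads with Bowtie2, aligned the rest to mm10 with STAR, removed duplicates and ran DESeq2 on a nonredundant gene set, with versions not given in the sources used here. The deposited signal is the authors' mean normalized count per entry, scaled between libraries by them. The 6 other numeric columns of each table hold the authors' fold changes, standard errors, statistics and p-values and were not used, so no test between groups was made.

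Of the 20633 entries, 20560 could be given a symbol (20450 by RefSeq, 110 by GENCODE M21), and the entry with the highest mean was kept per gene. Of these entries 897 had a mean of 0. Levels were divided by the length of the longest GENCODE M21 transcript matched to the RefSeq entry, known for 19073 genes. Promoter windows came from the RefSeq table of GRCm38.p6. The members and lists were chosen with earlier results of these data known. Named genes were all members, their opposite-strand and nearest genes, the highest and lowest of each list and, chosen after their values were seen, further genes of known roles. Some genes that this rule names are not reported here. Scripts were tested on simulated data. Python 3.11.15 with numpy 2.4.6, pandas 2.3.3 and matplotlib 3.10.9 was used. Alternatives were another length, another set of genes for percentiles, other limits on the mean and a shorter promoter window.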

Additional observations from a re-analysis of the deposited data

How the results depend on the processing

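The members' means were the same in the 3 tables, which hold the same pooled value. They were also unchanged when all entries of a symbol were summed, since each member has 1 entry. Neither of these is a test of the levels. All 5 promoter windows stayed CpG-rich in the part of the window nearest the start. *Msx2*, *Dlx3* and *Msx1* kept ranks 1 to 3 under every length tried, while 6 members changed rank with gene length and 3 without division by length. The ratio of the highest to the lowest member, 11.7 per kb of transcript, was 7.51 by gene length. The members' median percentile, 28.2, was 4.20 among genes with a mean of at least 10. The share of a list called well expressed moved with the limit on the mean, by construction. With a limit of 10 in place of 100 it went from 11.1% to 100% for the members, from 32% to 96% for crest and arch, from 16.7% to 83.3% for interneuron, from 8.33% to 41.7% for NK-like and from 40% to 100% for neural crest marker genes. With a limit of 1000 it was 0% for the members, the interneuron, NK-like, fibroblast and neural crest marker genes, 4% for crest and arch, 30.4% for Bmp, 20% for bone and tooth, 40% for housekeeping and 22.7% for all genes. No paired analysis was possible because the tables hold no values per library, and leaving out replicates was not possible for the same reason. The planned comparison of protein sequences was not run. Depth is unknown, so the counting error, which weighs most on low means, could not be estimated, and the means cannot separate the 4 groups.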
